A study of Mus musculus with 10 samples.

Results

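The genes described here encode the extracellular matrix, the integrins that bind it and the enzymes that remodel it. They number 46, of 31982 genes named on the array: 5 fibrillar collagens, 6 other collagens, 9 laminins and nidogens, 9 matrix glycoproteins and proteoglycans, 11 integrins, and 6 matrix enzymes and inhibitors. They were chosen by symbol, not by their values. Their non-control probes number 60 of 55681, and where a gene had several probes the brightest over the 10 arrays stood for it. For 33 of the genes there was 1 probe.

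Gene expression was measured on 10 single-color arrays, 1 per sample, in cultured and in freshly sorted mouse spermatogonia, the male germ cells that include the stem cells of the testis. Germline stem (GS) cells, spermatogonia that self-renew in culture, went without their usual growth factors, FGF2 and GDNF, for 3 days. They were then given 100 ng/mL FGF5 for 24 hr (2 samples) or no FGF5 (2 samples). The cells came from intercrossed C57BL/6 and ICR mice by the methods, whereas the labels give the strain C57BL/6, and whether feeder cells were present in this experiment is not stated in the sources used here. Sorted cells were GFP+ cells obtained by FACS from testes of GFRα1-EGFP knock-in mice of 2.5 months of age on the C57BL/6 background, either wild type (WT) or Fgf5-/- (the go-moja allele), with 3 samples each. All sorted groups thus carry the EGFP reporter in the Gfra1 locus, and whether a sample pooled several mice is not stated. The samples within a group came from separate experiments by the design text, and p-values measure only the spread between these samples. The number of arrays limits the precision.

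Spermatogonia lie on the basement membrane of the seminiferous tubule, a sheet built from laminins and type IV collagen that nidogens tie together. Integrins, dimers of an α and a β subunit, hold cells to such a sheet, and the laminin receptor formed by Itga6 and Itgb1 is a known surface marker of spermatogonial stem cells. Fibrillar collagens and the small proteoglycans on their fibrils are best known as products of fibroblasts and other connective tissue cells.

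Promoter sequence is shown for 5 of the genes whose values the results turn on: Col1a2 and Col6a3, which read higher in cultured than in sorted cells, Nid1 and Itga1, which read lower there, and Timp1, which had the lowest unadjusted p of the 46 genes in the FGF5 comparison. Each is the stretch of 250 bases before the start of the gene, written 5′ to 3′ on the gene's strand, from RefSeq on GRCm38.p6. Capitals mark the letters CCAAT, a common promoter motif, and the letters GGGCGG, the core of the GC box, on either strand. Read from the opposite strand, the former appears as ATTGG and the latter is written as CCGCCC. No matches within these 5 stretches shared bases.
Col1a2 (chr6:4505368-4505617, plus strand): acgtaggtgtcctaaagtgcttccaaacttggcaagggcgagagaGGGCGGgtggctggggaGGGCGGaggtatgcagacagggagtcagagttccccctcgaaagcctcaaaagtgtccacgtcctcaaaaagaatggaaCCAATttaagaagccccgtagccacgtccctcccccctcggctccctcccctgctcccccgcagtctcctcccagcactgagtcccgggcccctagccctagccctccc
Col6a3 (chr1:90843972-90844221, minus strand): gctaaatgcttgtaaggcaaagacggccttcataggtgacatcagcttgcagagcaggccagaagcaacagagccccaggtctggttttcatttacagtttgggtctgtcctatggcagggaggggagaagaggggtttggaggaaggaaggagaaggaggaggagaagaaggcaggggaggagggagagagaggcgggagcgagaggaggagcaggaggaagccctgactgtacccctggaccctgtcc
Nid1 (chr13:13437352-13437601, plus strand): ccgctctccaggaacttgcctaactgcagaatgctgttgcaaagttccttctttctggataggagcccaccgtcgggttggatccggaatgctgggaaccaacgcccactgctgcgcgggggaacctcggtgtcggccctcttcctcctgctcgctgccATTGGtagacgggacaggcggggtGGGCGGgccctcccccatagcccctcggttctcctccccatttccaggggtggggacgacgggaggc
Itga1 (chr13:115101965-115102214, minus strand): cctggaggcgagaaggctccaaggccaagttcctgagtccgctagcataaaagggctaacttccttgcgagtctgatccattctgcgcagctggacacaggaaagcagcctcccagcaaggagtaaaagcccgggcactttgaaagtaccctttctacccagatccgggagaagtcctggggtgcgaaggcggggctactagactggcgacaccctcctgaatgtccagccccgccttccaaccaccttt
Timp1 (chrX:20869916-20870165, plus strand): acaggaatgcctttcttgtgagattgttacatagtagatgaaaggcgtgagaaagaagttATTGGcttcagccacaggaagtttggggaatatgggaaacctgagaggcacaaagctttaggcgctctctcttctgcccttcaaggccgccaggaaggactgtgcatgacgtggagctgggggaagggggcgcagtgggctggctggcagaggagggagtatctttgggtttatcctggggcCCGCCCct

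A promoter was at hand for 33 of the 46 genes and for 27025 genes in all, and a gene with several promoters was counted once, as holding a motif if any of them did. GGGCGG lay in the window before 19 of the 33 (57.6%), against 35.4% of all these genes, and CCAAT in 11 (33.3%), against 37.5%. TATAAA, the TATA box, was found in 4 (12.1%), against 14.3%, and TGANTCA, the core of the AP-1 site, in 1 (3.03%), against 7.82%. Among the 8 genes with the largest increase in cultured over sorted cells, 2 of the 7 with a promoter held GGGCGG, as did 5 of the 6 with a promoter among the 8 with the largest decrease. These matches are descriptions of the letters, with no test.

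Levels are log2 signals on a scale where the 75th percentile of an array is 0, and a difference is a difference of group means with its standard error from limma (two-sided, Benjamini-Hochberg adjustment over all tested probes, threshold 0.05). Between 55.3% and 65.9% of the spots were well above background on each array. To be tested, a probe had to stand well above background throughout 1 or more of the groups compared. The probe of Fgf5 was well above background in 1 of the 6 sorted samples, the library labelled Fgf5-/- replicate 1 (level -3.42), and not in the other 5 (levels -6.90 to -5.47), so it does not check the genotypes. Etv5, a gene known to respond to FGF, read 3.05 and 4.32 with FGF5 and 0.51 and -0.99 without (difference 3.92, adjusted p = 1). All 16 spermatogonia markers examined were well above background on all 10 arrays.

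Of the 46 genes, 35 stood well above background on all 10 arrays. Another 9 did so on some arrays: Col3a1, Col5a2, Dcn, Lum, Postn, Tnc, Vtn, Itga5 and Lox. The probes of Itga2 and Itgb8, subunits of a collagen receptor and of a receptor that activates TGF-β, were not well above background on any array. Tests were possible for 38 genes in GS cells, 37 in sorted cells and 39 between cultured and sorted cells.

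**Figure D1:**
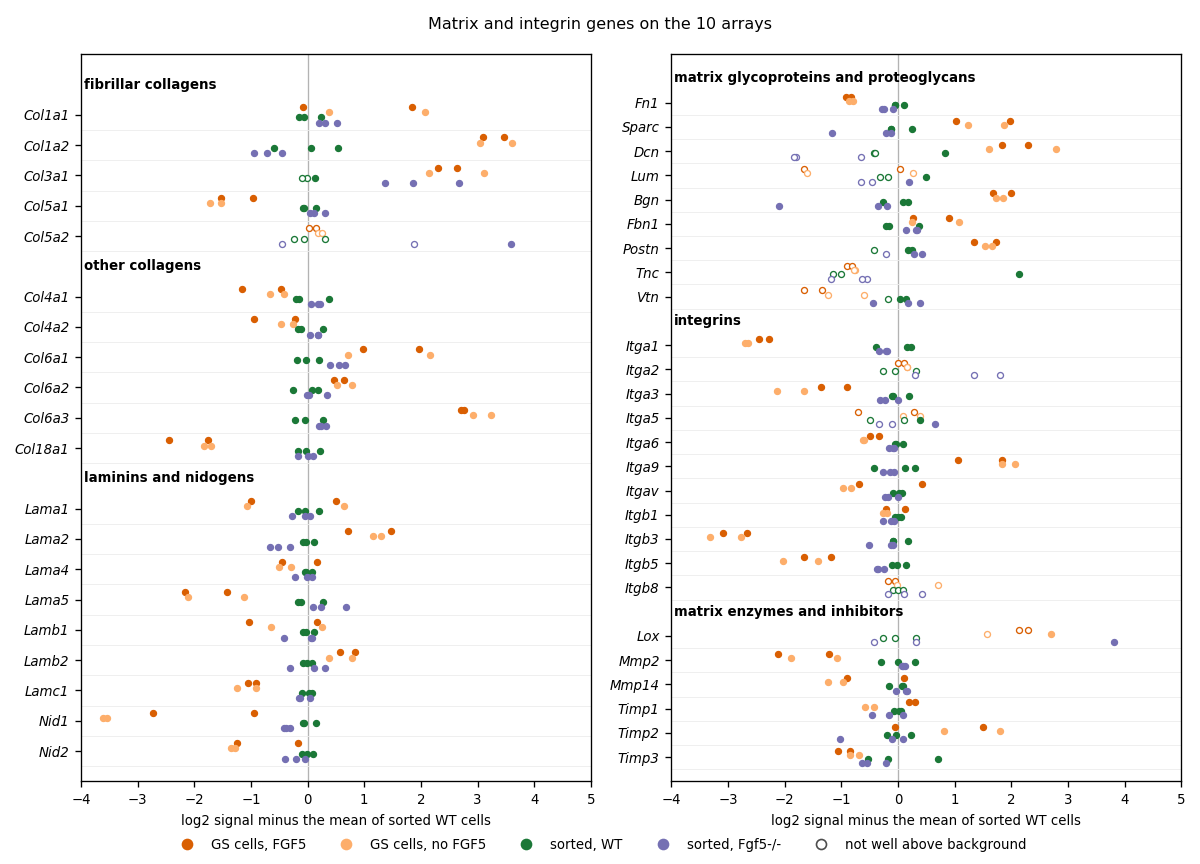
Log2 signal of the 46 genes on each of the 10 arrays (x axis), as the difference from the mean of the 3 sorted WT samples, grouped by role (y axis). Each point is 1 array, and open points were not well above background. The GS cell points of Col1a2 and Col6a3 lie far to the right of all sorted points and those of Itgb3, Nid1 and Itga1 to their left.

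Between cultured and sorted cells the matrix genes moved in both directions. Across the 10 arrays, 13 of the 39 genes tested were higher in GS cells and 18 lower past the adjusted threshold, against 41.9% of all 35827 probes higher and 25.7% lower. Of these, Col3a1, Dcn, Postn and Vtn were not well above background on all arrays of the dimmer material and passed the filter through the brighter one, so that their part in the count is no evidence. Among the 35 genes well above background on every array, 10 were higher and 17 lower. In a fit of only the 27235 probes that met this condition, 9850 were higher and 8121 lower. The median difference of the 39 was -0.26, where that of all probes was 0.26. Every one of the 39 lay on the same side of that overall median as of 0, with 15 above and 24 below. All culture arrays shared 1 slide and all sorted arrays another, so that slide and material cannot be told apart in any of these differences. The RNA came from bulk samples, in which fewer cells of a type and less RNA per cell cannot be told apart.

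No gene of the 46 passed the test for FGF5 in culture. In GS cells 0 of 38 genes passed the adjusted threshold, against 0% of the 34613 probes tested, while 3 had an unadjusted p under 0.05 (Nid1, Itga3 and Timp1) and 2.55% of all probes did. Nid1 alone was at least 2-fold higher with FGF5, against 0.867% of all probes, and 0 were at least 2-fold lower, against 0.439%. The samples with FGF5 lay above both samples without it for 9 genes and below both for 3, against 8.18% and 14.5% of all probes. The median difference of the 38 was -0.05, and that of all probes was -0.03.

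The same held for the loss of Fgf5. In sorted cells 0 of 37 genes passed, against 0% of 30286 probes, and 6 had an unadjusted p under 0.05 (Col3a1, Col6a1, Lama2, Nid1, Itgb5 and Col1a2), where 6.79% of all probes did. Col3a1 was at least 2-fold higher in Fgf5-/- cells, against 0.479% of all probes, and 0 genes were at least 2-fold lower, against 0.462%. The Fgf5-/- samples lay above all WT samples for 2 genes and below all of them for 7, against 7.01% and 9.2% of all probes. The median difference was -0.10, beside -0.03 for all probes. Without the library labelled Fgf5-/- replicate 1, too, 0 genes passed.

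Type I collagen, the main fibril of connective tissue, is built from the chains of Col1a1 and Col1a2. Col1a2 (probe at chr6:4490619-4490678, mm9) read at log2 levels of -0.10 and 0.28 with FGF5, -0.15 and 0.41 without, -3.78, -2.67 and -3.14 in sorted WT cells and -3.65, -3.92 and -4.14 in sorted Fgf5-/- cells. Every culture sample was above every sorted one. Its difference of 3.66 ± 0.23, a 12.7-fold excess in GS cells, was the largest of the 39 genes (adjusted p = 7.31e-06). FGF5 moved it by -0.04 ± 0.27 in culture, and Fgf5-/- cells differed from WT cells by -0.71 ± 0.29 (adjusted p = 0.728) with overlapping samples, or by -0.44 without WT replicate 2.

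Col1a1, the partner chain, did not follow it at the probe level. It read 3.49 and 1.56 with FGF5, 3.71 and 2.02 without, 1.87, 1.48 and 1.57 in WT and 2.16, 1.95 and 1.84 in Fgf5-/- cells, so that the second GS cell sample of each condition fell among the sorted samples. The difference between cultured and sorted cells, 0.88 ± 0.42, missed the threshold (adjusted p = 0.0900) but passed it without GS cells with FGF5 replicate 2 (1.37, adjusted p = 0.0122) or without GS cells without FGF5 replicate 2 (1.31, adjusted p = 0.0237). In both conditions Col1a1 was at least 2-fold higher in GS sample 1 than in GS sample 2 (by 1.92 and 1.68 on the log2 scale). Lama1 was the only other gene of the 38 to do so, and 1.27% of all probes did.

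Col3a1, the chain of type III collagen, which is found with type I in soft tissue, read -2.69 and -2.34 with FGF5, -2.84 and -1.88 without, -4.87, -5.00 and -5.09 in WT, and -3.62, -3.13 and -2.31 in Fgf5-/- cells. Only the first of the 3 WT samples was well above background, and the Fgf5-/- samples lay above all of them. The probe was thus tested only through the Fgf5-/- samples, where it is high, and the fitted difference of 1.96 ± 0.32 (unadjusted p = 0.000648, adjusted p = 0.728) sets them against WT signal that is mostly background. With each dim array raised to its lowest signal well above background it was 1.82. Between cultured and sorted cells it was 1.57 ± 0.28 (adjusted p = 0.00119), or 1.49 with the dim arrays so raised. Col5a1, a chain of type V collagen that nucleates fibrils, went the other way, with levels of 1.37 and 1.94 with FGF5, 1.17 and 1.37 without, 3.04, 2.82 and 2.84 in WT and 3.21, 3.00 and 2.94 in Fgf5-/- cells. All GS cell samples were below all sorted ones, by -1.51 ± 0.14 (adjusted p = 3.47e-05). Col5a2, its partner chain, was well above background in 1 sample only, Fgf5-/- replicate 2 (level -3.60). Of the 4 fibrillar collagens tested, 2 were thus higher in GS cells, 1 was lower and 1 did not pass. Of all probes 41.9% were higher and 25.7% lower. The part of Col3a1 in this count is no evidence, since it was not well above background on all sorted arrays.

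The other collagens split by type between cultured and sorted cells. All 3 type VI chains, which form beaded filaments around cells, were higher in GS cells. Both type IV chains of the basement membrane and Col18a1, a basement membrane collagen, were lower. For comparison, 41.9% of all probes were higher and 25.7% lower. Col6a3 (probe at chr1:92663663-92663722, mm9) read 0.70 and 0.66 with FGF5, 0.87 and 1.17 without, -1.79, -2.10 and -2.28 in WT and -1.74, -1.86 and -1.82 in Fgf5-/- cells. The 2 materials did not overlap, and the difference was 2.78 ± 0.12, or 6.87-fold (adjusted p = 1.38e-06). Col6a1 and Col6a2 were higher by 1.19 ± 0.30 and 0.54 ± 0.13 (adjusted p = 0.00716 and 0.00608), though Col6a2 lost its call under quantile normalization (0.22, adjusted p = 0.161).

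Col18a1 read 1.504 and 0.82 with FGF5, 1.56 and 1.43 without, 3.48, 3.23 and 3.09 in WT and 3.09, 3.27 and 3.37 in Fgf5-/- cells. It stood lower in GS cells (difference -1.92 ± 0.16, adjusted p = 2.06e-05), and a second probe of the gene gave -1.98. The differences of Col4a1 and Col4a2 were -0.76 ± 0.18 and -0.55 ± 0.16 (adjusted p = 0.00486 and 0.0161). The call of Col4a2 ended without GS cells with FGF5 replicate 2 (-0.37, adjusted p = 0.0540) and without GS cells without FGF5 replicate 2 (-0.49, adjusted p = 0.0583). In the FGF5 comparison 5 of these 6 collagens were lower, with differences from -0.34 to 0.03 and 0 past the threshold. Among all probes 41.4% were higher there.

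In sorted Fgf5-/- cells 5 of the 6 collagens outside the fibrils were higher, where 43.9% of all probes were, again with 0 past the threshold. The difference was greatest for Col6a1, with levels of -2.11, -2.49 and -2.34 in WT and -1.65, -1.91 and -1.76 in Fgf5-/- cells, beside -1.34 and -0.34 with FGF5 and -1.60 and -0.15 without it in GS cells. The sorted genotypes did not overlap, and the difference of 0.54 ± 0.14 had an unadjusted p of 0.00740 and an adjusted p of 0.728.

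Laminins are trimers of an α, a β and a γ chain, and nidogens link them to type IV collagen. All 9 genes of this list were well above background on all 10 arrays. Against sorted cells, 2 were higher in GS cells (Lama2 and Lamb2) and 4 were lower (Lama5, Lamc1, Nid1 and Nid2). Lama1, Lama4 and Lamb1 did not pass, and of all probes 41.9% were higher and 25.7% lower. Nid1 (probe at chr13:13604435-13604494, mm9) had levels of 0.53 and 2.31 with FGF5, -0.35 and -0.27 without, 3.40, 3.20 and 3.18 in WT and 2.84, 2.95 and 2.88 in Fgf5-/- cells. The order of the groups was the same for all samples: GS cells without FGF5 lowest, GS cells with FGF5 above them, then Fgf5-/- and then WT sorted cells.

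The difference of Nid1 between cultured and sorted cells was -2.52 ± 0.29, or 5.74-fold (adjusted p = 0.000127). With FGF5 it was 1.73 ± 0.60 higher, or 3.32-fold, the largest difference of the 38 genes in culture (unadjusted p = 0.0386, adjusted p = 1). That value rested in part on the second sample, since without GS cells with FGF5 replicate 2 it was 0.84. In Fgf5-/- cells it was -0.37 ± 0.11 (unadjusted p = 0.0130, adjusted p = 0.728). Both dimmer probes of Nid1 were well above background in 1 of 4 GS cell samples and in 6 of 6 sorted ones. They were thus tested through the sorted samples, where they are high. Their differences of -2.35 and -2.05 between cultured and sorted cells are therefore no independent support. For the sorted genotypes they gave -0.15 and 0.05.

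Nid2, the second nidogen, read 1.67 and 2.73 with FGF5, 1.56 and 1.63 without, 2.82, 2.91 and 3.01 in WT and 2.52, 2.71 and 2.87 in Fgf5-/- cells. Both samples with FGF5 were above both without it, and the difference was 0.60 ± 0.38 (adjusted p = 1), which fell to 0.068 without GS cells with FGF5 replicate 2. Lama5, an α chain of many adult basement membranes, read 0.94 and 1.68 with FGF5, 0.99 and 1.98 without, 3.38, 2.94 and 2.99 in WT and 3.79, 3.33 and 3.20 in Fgf5-/- cells. It was lower in every GS cell sample than in any sorted sample, by -1.87 ± 0.24 (adjusted p = 0.000219).

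Lama2, the α chain of muscle laminin, had the opposite direction. Its levels were -2.09 and -2.84 with FGF5, -2.25 and -2.40 without, -3.44, -3.59 and -3.64 in WT and -4.23, -3.87 and -4.08 in Fgf5-/- cells, which placed the 3 Fgf5-/- samples below all others. The difference was 1.41 ± 0.16 between cultured and sorted cells (adjusted p = 0.000105) and -0.50 ± 0.13 between Fgf5-/- and WT cells (unadjusted p = 0.00757, adjusted p = 0.728). A second probe gave 1.25 for the former and 0.16 rather than -0.14 for FGF5 in culture. For the genotypes that probe was not tested, with 2 of 3 samples of each well above background, and its mean levels went the other way, -3.88 in Fgf5-/- and -4.85 in WT cells. Lamc1, the γ chain shared by most laminins, differed by -0.99 ± 0.11 between cultured and sorted cells and Lamb2 by 0.62 ± 0.15.

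Proteins that decorate collagen fibrils or bind cells make up the list of matrix glycoproteins and proteoglycans. Between cultured and sorted cells 7 were tested. In GS cells 4 were higher (Dcn, Bgn, Sparc and Postn) and 2 lower (Fn1 and Vtn), and Fbn1 did not pass. Those counts stand beside 41.9% and 25.7% of all probes. Dcn, the proteoglycan decorin, read -3.05 and -2.60 with FGF5, -3.27 and -2.10 without, -5.32, -4.05 and -5.29 in WT and -5.54, -6.69 and -6.72 in Fgf5-/- cells. It was well above background in all 4 GS cell samples but in only 1 of 6 sorted ones, WT replicate 2. The probe was thus tested only through the GS cell samples, where it is high. The fitted difference was 2.84 ± 0.38 (adjusted p = 0.000252), and 2.06 (adjusted p = 0.000596) with the dim sorted arrays raised to their lowest signal well above background.

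Bgn, the related proteoglycan biglycan, read 0.54 and 0.22 with FGF5, 0.39 and 0.27 without, -1.72, -1.38 and -1.29 in WT and -3.56, -1.65 and -1.82 in Fgf5-/- cells. Every GS cell sample was above every sorted one, by 2.26 ± 0.35 (adjusted p = 0.000614). The difference of -0.88 ± 0.50 between the genotypes rested on the library labelled Fgf5-/- replicate 1, and without it was -0.28. Sparc, a collagen-binding glycoprotein, read 3.47 and 2.499 with FGF5, 3.36 and 2.71 without, 1.36, 1.72 and 1.36 in WT and 0.32, 1.28 and 1.36 in Fgf5-/- cells. It was higher in GS cells by 1.78 ± 0.28 (adjusted p = 0.000617), and its genotype difference of -0.49 ± 0.29 became -0.16 without the same library.

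Postn, periostin, a protein of injured and growing connective tissue, read -2.93 and -2.55 with FGF5, -2.62 and -2.74 without, -4.11, -4.03 and -4.71 in WT and -3.86, -4.49 and -3.997 in Fgf5-/- cells. WT replicate 3 and Fgf5-/- replicate 2 were not well above background. The probe was thus tested only through the GS cell samples, where it is high. The difference was 1.49 ± 0.19 (adjusted p = 0.000189), and 1.48 with these 2 arrays raised in the same way. Fn1, fibronectin, was lower in GS cells by -0.75 ± 0.09 (adjusted p = 0.000164). Vtn, vitronectin, was not well above background in GS cells and was so in 5 of 6 sorted samples. It was thus tested only through sorted samples, where it is high. The fitted difference was -1.23 ± 0.20 (adjusted p = 0.000780). Under normexp background correction it was -0.03 and the call was lost (adjusted p = 0.782). With the dim arrays raised it was -0.73 (adjusted p = 0.0303), a lower bound of 1.66-fold for the excess in sorted cells. That bound does not hold under normexp correction. Such a bound sets the mean of the brighter samples against, on each dim array, the lowest signal well above background there or the probe's own signal if that was higher. Lum was well above background in WT replicate 1 and in the library labelled Fgf5-/- replicate 1, and Tnc, tenascin C, in WT replicate 3 only. For FGF5 in culture, 5 of the 6 genes tested were lower and 1 higher, with differences from -0.14 to 0.05. Among all probes 41.4% were higher there.

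Integrins were mostly lower in GS cells than in sorted cells. Of 8 tested, 5 were lower past the threshold (Itga1, Itga3, Itga6, Itgb3 and Itgb5), beside 25.7% of all probes. Another 1 was higher (Itga9), beside 41.9%, and Itgav and Itgb1 did not pass. A second probe of Itga1 gave 0.11, and Itga6 missed the threshold under quantile normalization. The median difference of the 8 was -0.94. Itgb3, the β subunit of receptors for vitronectin and fibronectin (probe at chr11:104531672-104531731, mm9), read -0.71 and -1.15 with FGF5, -0.83 and -1.37 without, 2.13, 1.86 and 1.86 in WT and 1.44, 1.82 and 1.85 in Fgf5-/- cells. The materials were far apart, with a difference of -2.84 ± 0.16, or 7.16-fold (adjusted p = 4.28e-06), and a second probe gave -2.23.

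Itga1, the α subunit of a collagen and laminin receptor, read -2.85 and -2.68 with FGF5, -3.10 and -3.05 without, -0.79, -0.25 and -0.18 in WT and -0.75, -0.61 and -0.61 in Fgf5-/- cells. All GS cell samples were below all sorted samples (difference -2.39 ± 0.14, adjusted p = 4.48e-06). That probe lies at chr13:115756765-115758419 (mm9). A second probe, at chr13:115821387-115825525, disagreed, with a difference of 0.11 ± 0.26 (adjusted p = 0.731), so the decrease was seen with 1 of the 2 probes. Itga3, an α subunit of laminin receptors, read -2.35 and -1.90 with FGF5, -3.13 and -2.66 without, -1.10, -0.80 and -1.08 in WT and -0.9994, -1.31 and -1.23 in Fgf5-/- cells. It was lower in GS cells by -1.43 ± 0.15 (adjusted p = 7.29e-05).

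Itga6, the α subunit of the laminin receptor by which spermatogonial stem cells are enriched, read 4.23 and 4.39 with FGF5, 4.11 and 4.12 without, 4.67, 4.81 and 4.69 in WT and 4.65, 4.63 and 4.56 in Fgf5-/- cells. The difference of -0.46 ± 0.09 passed the threshold (adjusted p = 0.00179) but under quantile normalization was -0.27 and missed it (adjusted p = 0.0538). Itgb1, the β subunit it pairs with, read 2.68 and 3.02 with FGF5, 2.64 and 2.70 without, 2.84, 2.89 and 2.95 in WT and 2.63, 2.77 and 2.82 in Fgf5-/- cells. The groups overlapped, and the difference of -0.06 ± 0.10 (adjusted p = 0.618) turned to 0.10 under quantile normalization.

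Itgb5, a β subunit of vitronectin receptors, read 2.46 and 1.97 with FGF5, 2.22 and 1.61 without, 3.52, 3.62 and 3.77 in WT and 3.29, 3.39 and 3.27 in Fgf5-/- cells, and was lower in GS cells by -1.41 ± 0.15 (adjusted p = 8.56e-05). Itgav, the α subunit that pairs with both Itgb3 and Itgb5, read -2.32 and -1.23 with FGF5, -2.61 and -2.47 without, -1.63, -1.73 and -1.56 in WT and -1.64, -1.82 and -1.86 in Fgf5-/- cells. GS cells with FGF5 replicate 2 stood above all sorted samples and the other GS cell samples below them. The difference of -0.45 ± 0.20 missed the threshold (adjusted p = 0.0699), and without that sample it was -0.72 and passed it (adjusted p = 0.00123).

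Itga9, an α subunit that binds tenascin and other matrix proteins, read -1.03 and -1.81 with FGF5, -0.80 and -1.03 without, -2.73, -2.57 and -3.29 in WT and -3.12, -3.00 and -2.92 in Fgf5-/- cells. It was the only integrin of the list that was higher in every GS cell sample than in any sorted one, by 1.77 ± 0.19 (adjusted p = 9.04e-05). Itga5, the fibronectin receptor subunit, was well above background only in WT replicate 1 (level -4.58) and in the library labelled Fgf5-/- replicate 1 (level -4.31).

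**Figure D2:**
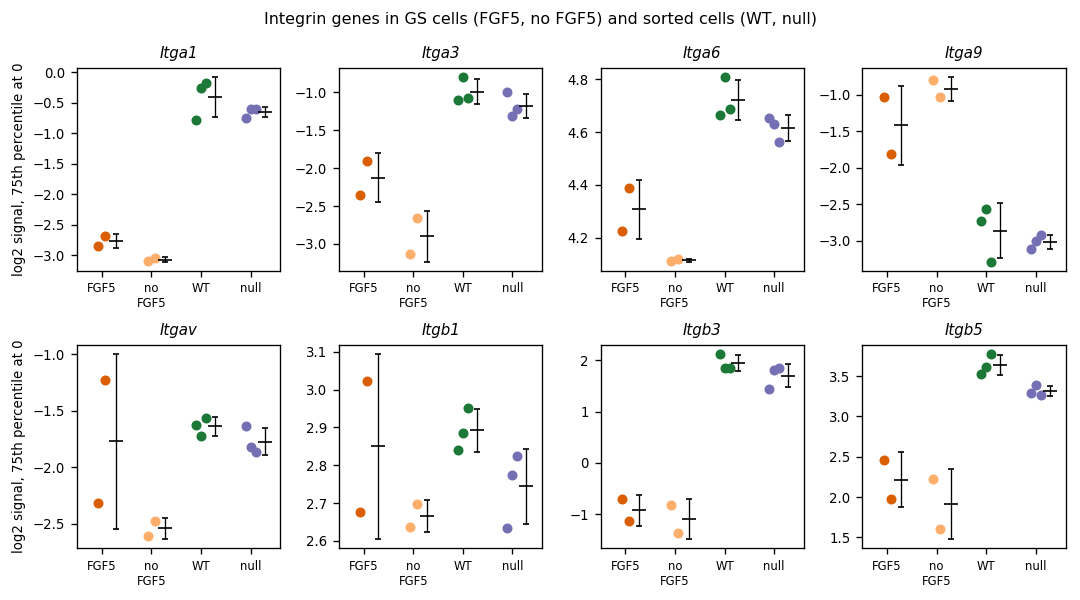
Log2 signal relative to the 75th percentile (y axis, a range of its own in each panel) of the 8 integrins tested, in GS cells with and without FGF5 and in sorted WT and Fgf5-/- (null) cells (x axis). Points are arrays and bars the mean ± SD of 2 or 3 arrays. For Itgb5 the 3 null points lie below the 3 WT points, and for Itga3 both FGF5 points lie above both points without FGF5.

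With FGF5, 7 of the 8 integrins were higher in GS cells, with differences from -0.50 to 0.77 and a median of 0.25, and 0 passed the threshold. Among all probes 41.4% were higher, and their median was -0.03. For Itga1, Itga3, Itga6 and Itgav both samples with FGF5 were above both without, and for Itga9 both were below. The shares of all probes were 8.18% above and 14.5% below. The differences were 0.77 ± 0.26 for Itga3 (unadjusted p = 0.0367), 0.77 ± 0.39 for Itgav, 0.31 ± 0.16 for Itga1, 0.30 ± 0.30 for Itgb5, 0.19 ± 0.16 for Itga6, 0.18 ± 0.19 for Itgb1, 0.17 ± 0.28 for Itgb3 and -0.50 ± 0.31 for Itga9, each with an adjusted p of 1. The second probe of Itga1 gave -0.04 and that of Itgav 1.51. The latter was well above background in 2 of 2 samples with FGF5 and in 1 of 2 without. It was thus tested only through the samples with FGF5, where it is high. Without GS cells with FGF5 replicate 2 the differences of Itgav, Itga9, Itgb1 and Itga6 came to 0.22, -0.12, 0.011 and 0.11. The count of 7 fell to 5 without the sample without FGF5 numbered 2 and to 6 without the sample with FGF5 numbered 1.

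In sorted Fgf5-/- cells all 8 integrins were lower than in WT cells, with differences from -0.32 to -0.11 and a median of -0.17, and again 0 passed the threshold. Among all probes 43.9% were higher, and their median was -0.03. Under quantile normalization Itga6 turned to 0.04, which left 7 of 8 lower. All 8 were lower when each sorted sample was left out in turn. Fgf5-/- samples lay below all WT samples for Itga6, Itgb1, Itgb3 and Itgb5, as they did for 9.2% of all probes. The difference was -0.32 ± 0.11 for Itgb5 (unadjusted p = 0.0252, adjusted p = 0.728) and -0.11 ± 0.10 for Itga6 (adjusted p = 0.796). For Itga1, Itga3, Itga9, Itgav, Itgb1 and Itgb3 it was -0.25 ± 0.18, -0.19 ± 0.14, -0.15 ± 0.20, -0.13 ± 0.11, -0.15 ± 0.10 and -0.24 ± 0.15. Single samples moved several of these values. Without the library labelled Fgf5-/- replicate 1 the differences of Itgb3, Itgb1, Itga9 and Itgav were -0.11, -0.093, -0.099 and -0.20, and without WT replicate 2 those of Itga9, Itga3 and Itga6 were -0.0049, -0.090 and -0.062. Without WT replicate 1 Itgb3 was -0.15 and Itga1 -0.44, and without WT replicate 3 Itga1 was -0.14 and Itga9 -0.36. The dimmer probe of Itga1 gave -1.09 here, but it was well above background in 3 of 3 WT and 1 of 3 Fgf5-/- samples. It was thus tested only through the WT samples, where it is high. The integrin signal summed over the list was 45.4 to 47.2 in Fgf5-/- samples, in units of the 75th percentile, and 28.3 to 34.6 in GS cells. It was higher in each WT sample than in any of these, with 53.3 as the highest. On this linear scale the sum follows its brightest genes. In WT cells these were Itga6 and Itgb5, with mean log2 levels of 4.72 and 3.64. The sum is thus no support apart from the values of such genes.

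Of the matrix enzymes and their inhibitors, 5 were tested. Between cultured and sorted cells 1 was higher in GS cells (Timp2) and 3 were lower (Mmp2, Mmp14 and Timp3). Timp1 did not pass, and of all probes 41.9% were higher and 25.7% lower. Mmp2, a gelatinase, read -0.78 and -1.68 with FGF5, -0.64 and -1.45 without, 0.74, 0.13 and 0.44 in WT and 0.50, 0.52 and 0.56 in Fgf5-/- cells. All GS cell samples were below all sorted ones (difference -1.62 ± 0.23, adjusted p = 0.000345). Mmp14, the membrane protease that activates the Mmp2 protein, read -4.16 and -3.16 with FGF5, -4.23 and -4.50 without, -3.19, -3.41 and -3.17 in WT and -3.12, -3.28 and -3.10 in Fgf5-/- cells. GS cells with FGF5 replicate 2 lay among the sorted samples and the other GS cell samples below them. The difference was -0.80 ± 0.19 against sorted cells (adjusted p = 0.00549) and 0.70 ± 0.38 for FGF5 (adjusted p = 1), which fell to 0.20 without that sample. Under normexp background correction the former was -0.20 and missed the threshold (adjusted p = 0.0826).

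Timp1, an inhibitor of metalloproteinases (probe at chrX:20451802-20451861, mm9), read -0.64 and -0.52 with FGF5, -1.26 and -1.41 without, -0.90, -0.77 and -0.80 in WT and -1.29, -0.98 and -0.73 in Fgf5-/- cells. Both GS cell samples with FGF5 were above both without. The difference of 0.75 ± 0.17 was 1.69-fold (unadjusted p = 0.00741, adjusted p = 1), and it kept its direction when each sample was left out. Timp2, a related inhibitor, read 1.02 and -0.52 with FGF5, 1.33 and 0.34 without, -0.67, -0.24 and -0.51 in WT and -1.49, -0.58 and -0.39 in Fgf5-/- cells. It was higher in GS cells by 1.19 ± 0.36 (adjusted p = 0.0171), a call that ended without GS cells with FGF5 replicate 1 (0.80, adjusted p = 0.0642) and without GS cells without FGF5 replicate 1 (0.94, adjusted p = 0.0750). Its FGF5 difference of -0.59 ± 0.62 turned to 0.18 without GS cells with FGF5 replicate 2.

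Timp3, the inhibitor that binds to the matrix itself, read -2.59 and -2.38 with FGF5, -2.37 and -2.22 without, -1.71, -0.83 and -2.05 in WT and -2.07, -2.17 and -1.75 in Fgf5-/- cells. The genotype difference was -0.47 ± 0.32 with overlapping samples (adjusted p = 0.764), and -0.12 without WT replicate 2. GS cells were lower than sorted cells by -0.63 ± 0.23 (adjusted p = 0.0372), a call lost without any 1 of the 4 GS cell samples and without Fgf5-/- replicate 1 or 3 (differences from -0.68 to -0.56, adjusted p from 0.0539 to 0.109). Lox, which crosslinks collagen, was well above background in 1 GS cell sample without FGF5, numbered 2 (level -4.47), and in Fgf5-/- replicate 3 (level -3.36).

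**Figure D3:**
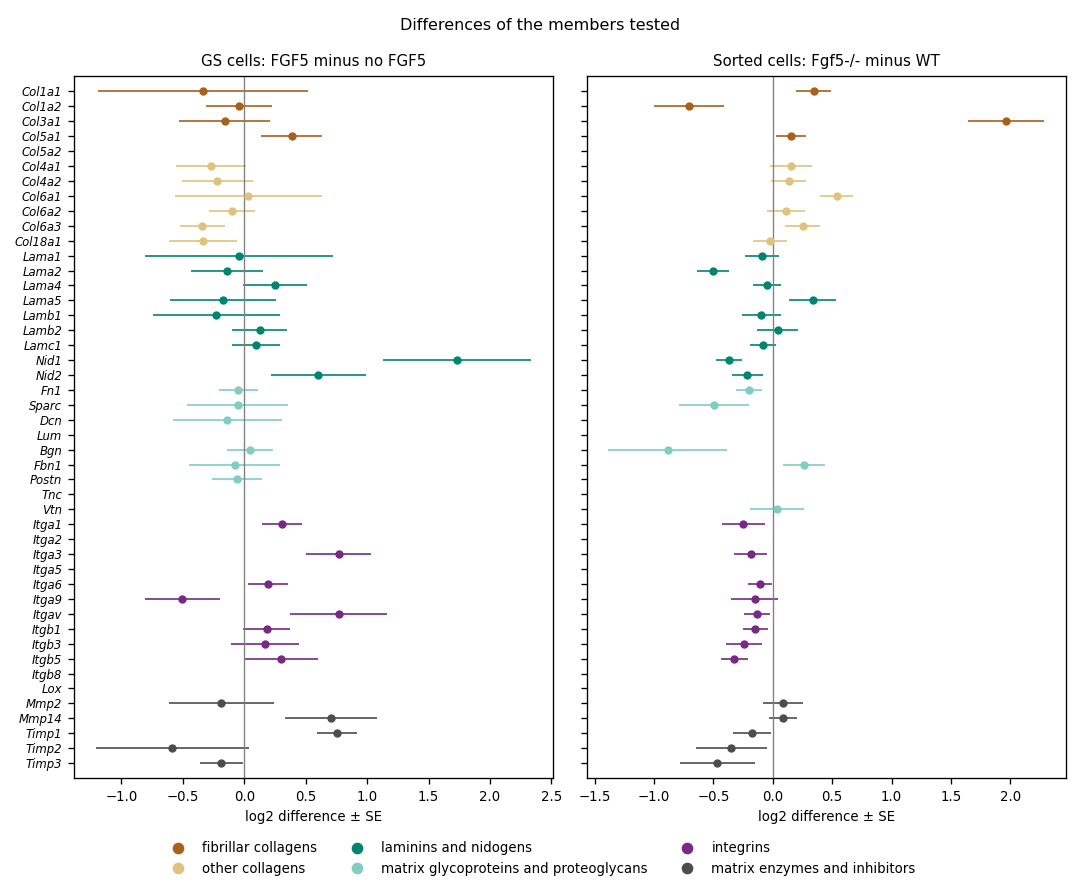
Log2 difference ± standard error (x axis) of each gene tested (y axis), for FGF5 against no FGF5 in GS cells (left, 2 arrays a group) and for Fgf5-/- against WT sorted cells (right, 3 arrays a group), colored by role. All 8 integrins lie left of 0 on the right, Nid1 lies farthest right on the left, and Col3a1 farthest right on the right.

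Other genes of the same pathway, listed with the 46 but outside them, also gave 0 calls for FGF5 or for the loss of Fgf5. Among 31 further matrix genes, 9 of 21 tested were higher with FGF5 and 8 of 18 in Fgf5-/- cells, beside 41.4% and 43.9% of all probes. Of 19 genes for collagen and matrix processing it was 9 and 8 of 15 tested, and of 16 genes of the integrin adhesion machinery 8 and 6 of 15. Other integrins were higher with FGF5 in 5 of 9 tested and in Fgf5-/- cells in 5 of 8. Itga7, a laminin receptor subunit, had the largest of these differences in culture, 0.81 ± 0.25 (unadjusted p = 0.0272, adjusted p = 1).

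Between cultured and sorted cells, 12 of 23 further matrix genes were higher in GS cells past the threshold and 7 lower. The shares of all probes, 41.9% higher and 25.7% lower, are the background for each count that follows. Col4a5, Col14a1, Fbln5, Efemp1, Eln, Thbs1, Thbs2, P4ha1 and Mmp15 were not well above background on every array. Any part they have in the counts is no evidence. Lama3, an epithelial laminin chain, was 1.89 ± 0.15 higher (adjusted p = 1.85e-05). Col14a1, a collagen that sits on fibrils, was tested only through sorted samples, where it is high. Its fitted difference was -4.73 ± 0.40 (adjusted p = 2.54e-05). It was -4.25 with the 3 GS cell samples that were not well above background raised to their lowest such signal. In collagen and matrix processing 6 of 16 were higher and 6 lower. P4ha1, a subunit of prolyl 4-hydroxylase, was tested only through GS cell samples, where it is high. Its fitted difference was 3.28 ± 0.39 (adjusted p = 0.000145). It was 2.67 with the 4 of 6 sorted samples that were not well above background so raised. Of other integrins 3 of 9 were higher and 3 lower, with -2.47 ± 0.13 for Itga7 (adjusted p = 3.18e-06). In the adhesion machinery 3 of 15 were higher and 6 lower, from -0.81 for Zyx, zyxin, to 0.77 for Parva, α-parvin.

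Markers of other cell types were read beside these values. Summed over 12 fibroblast markers, the signal in units of the 75th percentile was 1.59 to 2.13 with FGF5, 1.35 to 2.41 without, 2.35 to 2.49 in WT and 2.12 to 2.31 in Fgf5-/- cells. Of the 7 tested between cultured and sorted cells, 2 were higher in GS cells (Snai2 by 1.85 and Cdh11 by 0.43) and 5 lower. Among the latter were the receptors for platelet-derived growth factor, Pdgfra (-0.46) and Pdgfrb. The shares of all probes were 41.9% higher and 25.7% lower. Dpt, Prrx1 and Tcf21 were not well above background on any array, and Pdgfrb was so in 0 of 4 GS cell and 6 of 6 sorted samples, which made it at least 3.50-fold higher in sorted cells. Of the GS cell samples, 1 without FGF5 had a sum (2.41) above 5 of the 6 sorted samples, 1 with FGF5 (2.13) was above 1 of the 6, and the other 2 were below all of them.

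Of 6 peritubular myoid markers the sum was 1.44 to 2.14 in GS cells and 0.79 to 1.09 in sorted cells, with Acta2 2.18 ± 0.25 higher (adjusted p = 0.000127) and Cnn1 lower in GS cells (fitted difference -1.99 ± 0.35, and -1.52 with the 3 of 4 GS cell samples that were not well above background raised). Sertoli markers summed to 2.41 to 3.12 in GS cells and 6.39 to 10.9 in sorted cells. Amh and Fshr were not well above background on any array. Of 8 tested, 1 was higher in GS cells past the threshold and 5 lower, beside 41.9% and 25.7% of all probes. Clu was lower (difference -4.23 ± 0.29) and Sox9 higher (fitted difference 2.03, and 1.94 with dim arrays raised). Endothelial markers summed to 11.96 to 21.04 in GS cells and 2.96 to 5.17 in sorted cells, macrophage markers to 3.83 to 4.70 and 1.05 to 2.11, and Leydig markers to 4.99 to 6.65 and 0.42 to 1.96. In GS cells 4 to 5 of 7 endothelial, 4 to 5 of 6 macrophage and 2 to 3 of 5 Leydig markers were well above background. Of 6 endothelial markers tested, 3 were higher in GS cells past the threshold and 2 lower. Pecam1 and Vwf were higher (by 1.05 and 4.13), while Cdh5 (-2.35) and Tek were lower. For Tek the fitted difference was -3.00, or -2.21 with the dim arrays raised. Of 5 macrophage markers tested, 4 were higher and 0 lower, with 1.05 for Cd68 and 1.71 for Csf1r. Of 2 Leydig markers tested, 2 were higher, with 2.30 for Cyp17a1. Tie1, Lyz2, Cyp11a1 and Lhcgr were not well above background on any array. The 16 spermatogonia markers summed to 238 to 247 in GS cells and 237 to 279 in sorted cells, but single markers differed. Past the threshold 3 were higher in GS cells and 6 lower, beside 41.9% and 25.7% of all probes. Their differences ran from -3.50 to 0.58. The part of these cell types in the matrix differences was not tested.

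**Figure D4:**
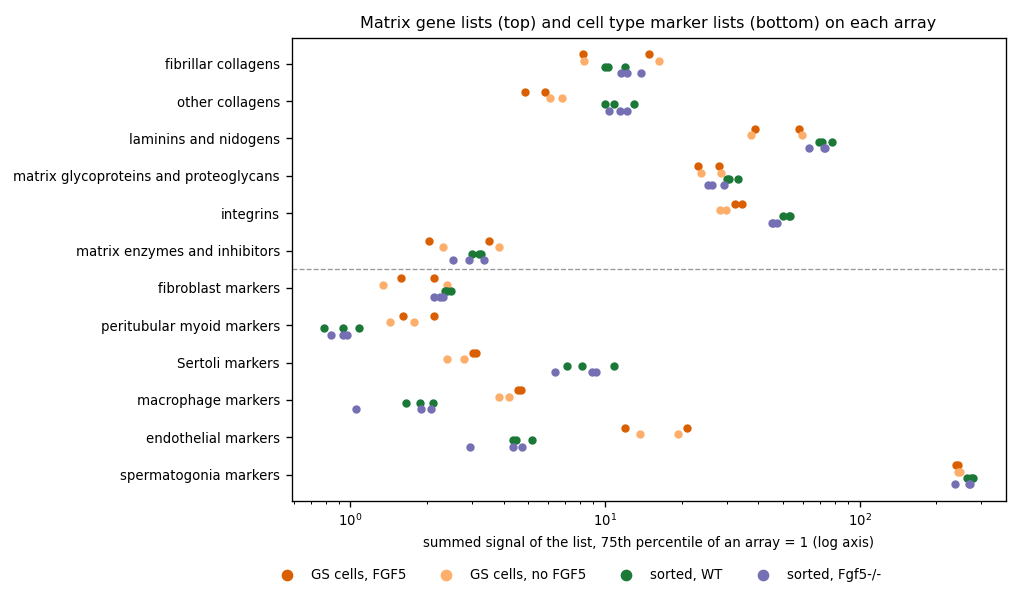
Summed signal of each gene list on each of the 10 arrays, with the 75th percentile of an array as 1 (x axis, log scale). The matrix lists are above the dashed line and the marker lists below it (y axis). Integrin sums are lowest in GS cells and highest in sorted WT cells, and fibroblast marker sums of GS cells reach from below the sorted samples to among them.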

How the data were processed

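Every sample had its own Agilent 8x60K mouse array, labelled in a single colour (Cy3). The authors deposited scanner intensities, from which Feature Extraction had subtracted the background (version 10.7.1.1 per the file headers, 10.7.3.1 per the submitters' processing notes), and a table of log2 values that the authors made in GeneSpring with a floor of 1.0 and a shift to the 75th percentile. Here the scanner intensities were treated likewise. Uneven and population-outlier spots were left out (117 to 205 an array), 0 spots were saturated and 0 signals lay under the floor. The 75th percentile was 575.2 to 649.8 scanner units in culture and 794.3 to 1091.1 in sorted samples. Per array, the authors' values equal these log2 values plus a constant (0.131 to 0.204). Names and mm9 positions are those of the files, all 46 names matched RefSeq, and exon annotation in mm9 was not used here.

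Repeated spots of 1 probe entered as their mean log2 value, and a probe counted as well above background when at least 1 in 2 of its spots did. Groups were compared with limma 3.58.1 (lmFit, eBayes, two-sided) in R 4.3.3 (package data.table, version 1.17.8), culture and sorted samples in separate fits and cultured against sorted samples in a fit of all 10. Probes in a fit numbered 34613, 30286 and 35827, and the comparisons 3. The fits were also run on simulated data with 200 probes changed. At a log2 difference of 1 the culture fit recovered 0%, the sorted fit 39% and the fit of all arrays 54%. At a log2 difference of 2 they recovered 89%, 93% and 93.5%. The simulated noise was independent between arrays and lacked the deviations that equally numbered samples shared in culture. These shares therefore do not give the power of the real fits. In the real culture fit Etv5 did not pass at a difference of 3.92. Values on every array are given for the 8 genes with the largest difference in the culture and in the sorted comparison, the 8 highest and 8 lowest between cultured and sorted cells, and every integrin tested. Col1a1 was added after its values were seen. The genes and lists were chosen with earlier results of these data known. Alternatives were quantile normalization, normexp correction (offset 50), the authors' table, the percentile over detected probes, no filter or a stricter one on dim probes, outlier spots kept, an intensity trend in the variance, the mean of the probes of a gene, the replicate number as a block, all arrays in 1 fit, GS cells without FGF5 against WT cells only, and leaving out each array. Raising signals not well above background to the lowest signal on that array that was, before the fit, was chosen after seeing the data.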

Additional observations from a re-analysis of the deposited data

How the results depend on the processing

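For FGF5 in culture and for the loss of Fgf5 in sorted cells, 0 of these genes passed the adjusted threshold under each of the 16 and 18 alternatives run, the replicate block included (0 and 0 calls). The block changed no call of these comparisons, but it moved the unadjusted p-values. In culture it raised the number of all probes with an unadjusted p under 0.05 from 882 to 2479. In sorted cells that number fell from 2055 to 1561. Deviations of equally numbered samples correlated at 0.636 in culture, with 2 numbers only, and at -0.420, -0.156 and -0.149 in sorted cells, and nothing in the labels says that a number marks a shared culture or day. Between cultured and sorted cells 27 to 33 genes passed. The median difference there was -0.26 and became -0.45 with only probes well above background on every array, which left fewer genes tested. With 1 array left out, the median difference ranged from -0.0099 to 0.15 in culture, from -0.11 to -0.08 in sorted cells and from -0.44 to -0.20 between cultured and sorted cells, and the count of genes in the last from 29 to 33. In culture it was 0.13 without GS cells with FGF5 replicate 2 and 0.15 without GS cells without FGF5 replicate 1, so its sign is not settled. Directions turned in culture when an array was left out for Itgb3 (-0.10 to 0.44), Itgb5 (-0.0057 to 0.61) and Timp2 (-1.36 to 0.18). Between cultured and sorted cells Itgb1 turned to 0.10 under quantile normalization, 0.073 with the percentile over detected probes and 0.063 with the mean of its probes, and ranged from -0.15 to 0.026 with an array left out. In sorted cells Itga6 turned to 0.042 under quantile normalization. Between cultured and sorted cells Itga6, Col6a2, Vtn, Mmp14, Timp2, Timp3, Col4a1 and Col4a2 lost their calls under at least 1 alternative, and Lama4, Fbn1, Timp1 and Col1a1 gained one. Itgav gained a call under quantile normalization (-0.73), with the authors' table (-0.50), without GS cells with FGF5 replicate 2 (-0.72) and for GS cells without FGF5 against WT cells only (-0.90). For these the cause was not tested. The median over all probes between cultured and sorted cells was 0.26, 0.13 under quantile normalization and 0.39 with the percentile over detected probes. Signal over background limits Lum, Tnc, Itga2, Itga5, Itgb8, Lox and Col5a2, which were tested in none of the comparisons.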
